A study of Homo sapiens with 9 samples.

Results

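The mitotic kinesins are motor proteins that burn ATP to move along, slide or shorten spindle microtubules during cell division. The 10 genes described here, KIF11, KIF14, KIF15, KIF18A, KIF20A, KIF20B, KIF23, KIF2C, KIF4A and KIFC1, were chosen by symbol from the 21619 genes of the count tables, and all 10 were present and passed the filter on low counts that left 13458 genes for testing. They were measured in 9 xenograft tumours of MDA-MB-231, an established human triple-negative breast cancer line, whose cells carried the ribosomal protein L10a fused to EGFP. In 5 tumours the cancer cells went into the mammary fat pad together with human bone marrow mesenchymal stem cells (MSC), 1:1, and in 4 they were injected alone. Each tumour came from a different mouse and was removed at 3 weeks, and RNA on EGFP-tagged ribosomes was pulled down from the lysed whole tumour (translating ribosome affinity purification) and sequenced. The tag was in the cancer cells of both groups, and how many MSC were left at harvest is not stated. Without a library of total RNA, a change in RNA amount and a change in ribosome loading cannot be told apart.

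Most of these genes are transcribed only when a cell prepares to divide, so their RNA is scarce outside G2 and mitosis. KIF11, KIF15 and KIFC1 set the 2-pole shape of the spindle, with KIF11 and KIF15 pushing the poles apart and KIFC1, the motor that walks the opposite way, pulling microtubules together. KIF2C, KIF18A and KIF4A act at chromosomes and microtubule tips, and KIF23, KIF20A, KIF20B and KIF14 act at the central spindle and in the final cut between daughter cells. In a bulk sample, fewer dividing cells and less RNA per dividing cell cannot be told apart.

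The promoters of these genes are shown because a pair of short motifs is shared by most of them and was not used to choose them. CCAAT is the motif bound by the factor NF-Y, and TTTGAA is a form of the CHR element, a site of the DREAM and MMB complexes that switch cell cycle genes off and on. In the RefSeq windows of GRCh38.p14, from 250 bases before to 50 bases after the gene start, CCAAT was found on either strand in 8 of 10 mitotic kinesins and in 35.7% of 27305 promoters. TTTGAA was found in 8 of 10 and in 15.4% of all. KIF2C and KIF15 had no CCAAT in the window, and KIF2C and KIF20A no TTTGAA. The 150 bases before the start are printed for KIF20A (chr5:138178962-138179111 (plus strand)), KIF11 (chr10:92592980-92593129 (plus strand)), KIF18A (chr11:28108157-28108306 (minus strand)), KIFC1 (chr6:33391673-33391822 (plus strand)) and KIF20B (chr10:89701440-89701589 (plus strand)). The first 3 were lower with MSC and the last 2 were not called. Capitals mark both motifs on either strand, where ATTGG and TTCAAA are the reversed forms, and the motifs do not overlap one another in these stretches.
KIF20A: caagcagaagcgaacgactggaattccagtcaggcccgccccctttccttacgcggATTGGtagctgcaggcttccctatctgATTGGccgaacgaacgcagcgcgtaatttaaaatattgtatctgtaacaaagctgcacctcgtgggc
KIF11: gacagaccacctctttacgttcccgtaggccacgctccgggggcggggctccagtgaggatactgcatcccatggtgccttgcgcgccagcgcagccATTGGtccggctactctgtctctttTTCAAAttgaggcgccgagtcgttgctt
KIF18A: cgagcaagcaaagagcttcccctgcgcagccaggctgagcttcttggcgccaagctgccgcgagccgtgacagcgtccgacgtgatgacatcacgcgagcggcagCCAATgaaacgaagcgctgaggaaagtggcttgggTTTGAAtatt
KIFC1: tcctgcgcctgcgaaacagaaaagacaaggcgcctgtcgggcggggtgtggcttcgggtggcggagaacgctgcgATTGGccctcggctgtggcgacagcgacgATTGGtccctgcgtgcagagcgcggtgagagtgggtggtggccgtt
KIF20B: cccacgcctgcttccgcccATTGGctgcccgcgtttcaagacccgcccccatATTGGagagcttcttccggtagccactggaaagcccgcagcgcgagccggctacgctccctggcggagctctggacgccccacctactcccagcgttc
KIF20A, the gene with the largest fall, held a pair of CCAAT motifs here, as did KIFC1 and KIF20B, which were not called. In this shorter stretch CCAAT was found in 8 of 10 members against 24.4% of all promoters, and TTTGAA in 5 of 10 against 7.44%. The 5 with TTTGAA were KIF11, KIF18A, KIF23 and KIF4A, which were called, and KIF15, which was not. KIF14, KIF20B and KIFC1, not called, had it only outside this stretch. KIF20A and KIF2C, both called, had none in the window. A match is a string of letters in these windows, and binding was not measured.

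The libraries held 24616792 to 65275226 gene counts. Values below are CPM, counts relative to library size after TMM scaling, as mean ± SD (n = 5 with MSC, n = 4 without). Each log2 change takes the group with MSC against the group without, ± SE, from edgeR's quasi-likelihood test, and a gene was called at a Benjamini-Hochberg adjusted p under 0.05 over all 13458 genes. The 8 marker genes chosen for MDA-MB-231, vimentin and AXL among them, were all tested and 3 were called higher with MSC. They summed to 10290.2 to 16658.5 CPM with MSC and 9601.8 to 11181.6 without. Of all tested genes 3.60% were called lower and 4.18% higher, the shares to set beside each marker list here. Of 6 luminal breast markers 3 (ESR1, PGR and FOXA1) were too low to test. The other luminal markers, GATA3, KRT18 and ERBB2, were tested and not called. At an unadjusted p under 0.05 in edgeR, 1 was lower and 2 higher, against 11.8% and 12.8% of all tested genes. The 6 luminal markers summed to 275 to 440 CPM with MSC and 232 to 310 without. Tumour 15 with MSC had the highest summed level of 14 fibroblast and MSC markers, 772 CPM against at most 719 in the other tumours, within a range of 569 to 772 with MSC and 493 to 636 without. Of those 14 markers 5 averaged under 1 CPM and none was at 0 in every tumour; 8 were tested and 1 was called higher. Summed endothelial markers (6 genes, 2 tested, 1 called lower) were 5.02 to 7.26 CPM with MSC and 8.33 to 10.8 without, and immune markers (8 genes, 4 tested, 1 called higher) 139 to 209 and 96.0 to 139. The part of these markers in the results below was not tested. RPL10A, the gene of the tagged ribosomal protein, had 2302 ± 419 CPM with MSC and 1953 ± 119 without (log2 0.24 ± 0.14, edgeR adjusted p = 0.314).

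Of the 10 mitotic kinesins 6 were lower with MSC and 0 were higher, and 9 had a negative change. Over all tested genes, 3.60% were called lower and 4.18% higher. The members were chosen with earlier results of these data known, so the contrast with these shares is not independent of that choice. KIF20A, KIF2C, KIF18A, KIF11, KIF4A and KIF23 were the genes called. KIF20A fell by 39.2% on the fitted scale and KIF23, the least changed of them, fell by 21.8%. KIF14, KIF15, KIF20B and KIFC1 were not called, and KIFC1 alone had a positive change. The median log2 change of the 10 was -0.37, and that of all tested genes 0.01. At an unadjusted p under 0.05, 7 members were lower and 0 higher in edgeR, against 11.8% and 12.8% of all tested genes. DESeq2 called 6 members lower and 0 higher, against 6.14% and 6.77% of its genes, and limma-voom with quality weights called 5 and 0, against 2.15% and 2.99%. In 6 members every tumour with MSC lay below every tumour without, which was so for 4.87% of tested genes, and in 0 members every tumour with MSC lay above, against 5.13%. Summed over the 10 genes, the level was 386 ± 25.2 CPM with MSC and 499 ± 60.6 without. The lowest sum without MSC, 429 CPM in tumour 13, lay above the highest with MSC, 422 CPM in tumour 7.

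**Figure D1:**
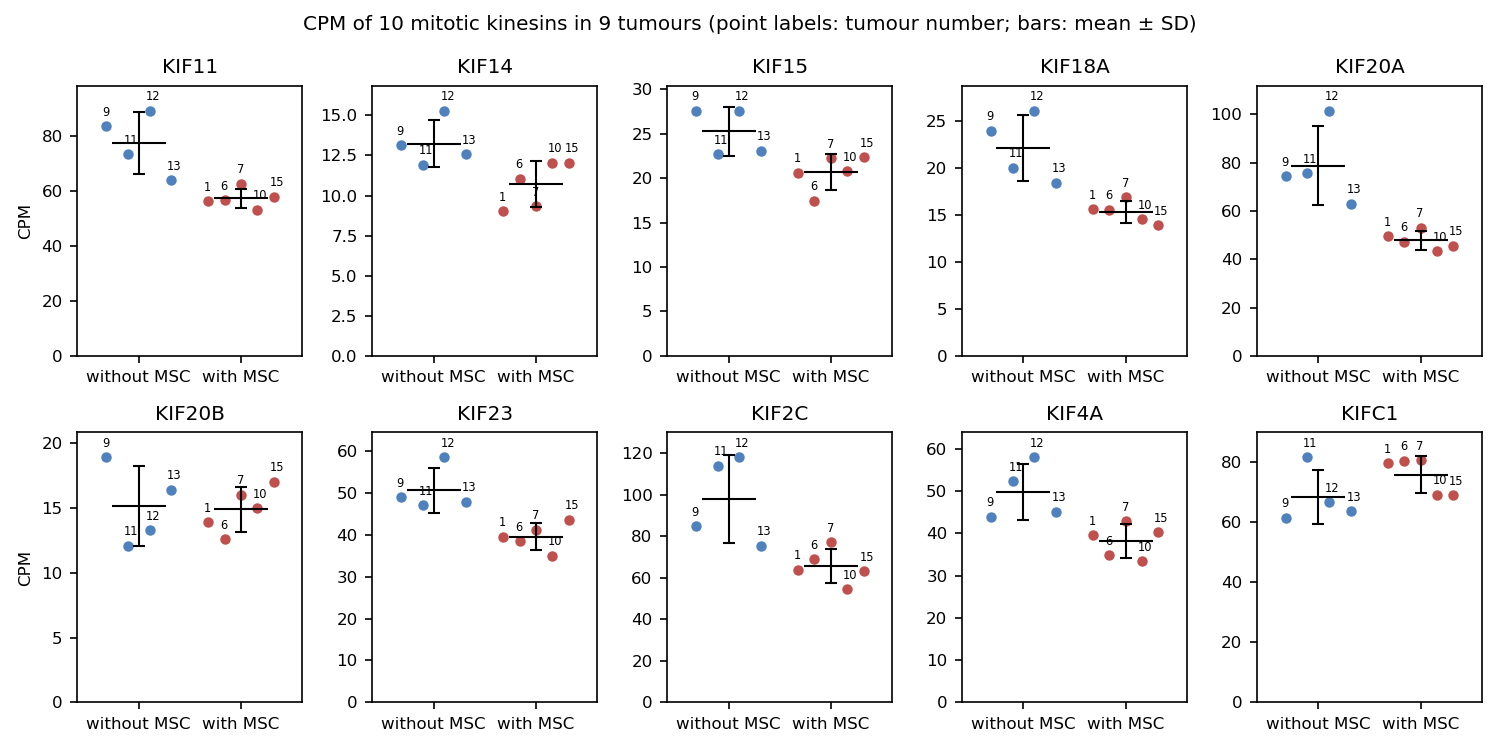
CPM (vertical axes, from 0) of each mitotic kinesin in the 4 tumours without and the 5 with MSC; each point is a tumour with its number, and the bars are mean ± SD. The groups do not overlap for KIF11, KIF15, KIF18A, KIF20A, KIF23 and KIF4A, they meet at the edge for KIF2C and KIF14, and they overlap widely for KIF20B and KIFC1.

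The number of calls rested on single tumours, and the calls of KIF4A and KIF23 also on the processing. Without tumour 12, a tumour without MSC, only KIF20A was called among the 10, with 0.690% of all tested genes called lower. Without tumours 12 and 15 together it was again KIF20A alone, against 0.747%. Without tumour 9 (no MSC) or tumour 10 (MSC) KIF20A and KIF2C were called, against 1.02% and 1.44% of all genes. Without tumour 1 (MSC) KIF18A, KIF20A and KIF2C were called, against 1.44%. Each of the 6 falls kept its sign in all 21 alternative analyses. Of these, 1 was the main fit read at an adjusted p of 0.10, where no sign could change. Tumour 12 had the smallest library and the highest level of 7 of the 10 genes, and with every library thinned to its size 4 members were called lower.

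Among the motors that build the spindle, KIF11 (Eg5), the motor that slides antiparallel microtubules apart and the target of the drug monastrol, was the clearest fall. Its levels with MSC were 56.4, 56.7, 62.7, 53.2 and 57.9 CPM in tumours 1, 6, 7, 10 and 15. Without MSC they were 83.5, 73.5, 89.3 and 63.9 CPM in tumours 9, 11, 12 and 13. The 5 tumours with MSC were close to one another and all below tumour 13, the lowest of the others. The means were 57.4 ± 3.43 and 77.6 ± 11.2 CPM, and the log2 change was -0.43 ± 0.11 (edgeR adjusted p = 0.0219). The call was lost without tumours 1, 9, 10 or 12 (edgeR adjusted p up to 0.0983), and without tumours 12 and 15 together.

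KIF15, which binds along spindle fibres and can take over from KIF11, was 20.6, 17.5, 22.3, 20.7 and 22.4 CPM in tumours 1, 6, 7, 10 and 15. Without MSC it was 27.6, 22.7, 27.6 and 23.1 CPM in tumours 9, 11, 12 and 13. The groups did not overlap, but tumour 15 at 22.4 and tumour 11 at 22.7 CPM lay side by side. The log2 change was -0.29 ± 0.12 (edgeR adjusted p = 0.155), and KIF15 was called in 0 of the 21 alternative analyses.

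KIFC1 (HSET), the minus-end motor that bundles microtubules at the poles and gathers extra centrosomes in cancer cells, went its own way. It had 79.4, 80.3, 80.4, 69.0 and 68.8 CPM in tumours 1, 6, 7, 10 and 15 with MSC. Without MSC it had 61.4, 81.5, 66.5 and 63.6 CPM in tumours 9, 11, 12 and 13. The highest value of all was tumour 11 without MSC, so the groups overlapped. The means were 75.6 ± 6.12 with and 68.2 ± 9.09 CPM without MSC, a log2 change of 0.15 ± 0.11 with a 95% interval of -0.08 to 0.37 (edgeR adjusted p = 0.426). That interval leaves room for a small rise and excludes a fall of the size seen for KIF11. KIFC1 also had the highest GC content of the 10 transcripts, 57.9% against a member median of 41.8%, and its change was -0.01 after a correction for GC content and length.

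The balance between KIFC1 and KIF20A, a pair chosen after their values were seen, can be read within each library without any scaling between tumours. Such a ratio was not corrected for GC content, which was 57.9% for KIFC1 and 48.4% for KIF20A. The ratio of their counts was 1.598, 1.70, 1.51, 1.59 and 1.51 in tumours 1, 6, 7, 10 and 15. It was 0.824, 1.076, 0.654 and 1.01 in tumours 9, 11, 12 and 13. KIFC1 thus had at least 1.51 counts for each KIF20A count in every tumour with MSC and at most 1.076 in every tumour without. Against KIF11, its spindle antagonist, the ratio was 1.32 ± 0.0954 with and 0.896 ± 0.186 without MSC. Of the 9 ratios of KIFC1 to another member, 5 did not overlap between groups (KIF11, KIF18A, KIF20A, KIF2C and KIF4A) and 4 did (KIF14, KIF15, KIF20B and KIF23), with 5.15 ± 0.921 and 4.71 ± 1.54 for KIF20B. All 9 ratios share KIFC1, the only member with a positive change, and those 5 members were all called lower. The count therefore restates those calls, and its share over other genes was not computed. These differences were not tested.

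Of the motors at chromosomes and microtubule tips all 3 fell. KIF2C (MCAK), which takes apart microtubules that are wrongly attached to kinetochores, was 63.9, 69.0, 77.1, 54.6 and 63.2 CPM in tumours 1, 6, 7, 10 and 15. It was 84.9, 114.1, 118.2 and 75.5 CPM in tumours 9, 11, 12 and 13. Tumour 7 with MSC lay just above tumour 13 without, and the other tumours with MSC lay below all others. The means were 65.6 ± 8.25 and 98.2 ± 21.2 CPM (log2 -0.58 ± 0.13, edgeR adjusted p = 0.0134). When single tumours were left out, the call was lost without tumour 12 (edgeR adjusted p = 0.0696), and it was also lost without tumours 12 and 15 together.

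KIF18A, which damps the swings of chromosomes at the spindle equator, was 15.6, 15.5, 16.9, 14.5 and 13.9 CPM in tumours 1, 6, 7, 10 and 15. Without MSC it was 24.0, 20.01, 26.1 and 18.4 CPM in tumours 9, 11, 12 and 13. The groups were apart, with all 5 values with MSC below 18.4 CPM. The means were 15.3 ± 1.15 and 22.1 ± 3.53 CPM (log2 -0.53 ± 0.13, edgeR adjusted p = 0.0213), and the call was lost without tumours 9, 10 or 12 and without 12 and 15 together (edgeR adjusted p up to 0.0857 for a single tumour). KIF18A exons overlap those of METTL15 on the opposite strand by 61 bases in GENCODE 29, and the labels do not say whether the counting used strand.

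KIF4A, a chromosome-bound motor that works with condensin and later with PRC1 in the central spindle, was 39.6, 34.8, 42.9, 33.4 and 40.2 CPM in tumours 1, 6, 7, 10 and 15. It was 44.0, 52.3, 58.1 and 45.1 CPM in tumours 9, 11, 12 and 13. The groups did not overlap, but tumours 7 and 9 were close. The log2 change was -0.38 ± 0.12 (edgeR adjusted p = 0.0486), just inside the threshold, and the call was kept in 1 of the 9 analyses that left out a tumour. Of 11 other alternatives at the same threshold, 5 kept the call, and it was lost after thinning and after the GC correction. KIF4B, an intronless near copy of KIF4A, was too low to test, and how reads that match both genes were counted is not stated, so the level of KIF4A is uncertain to that extent.

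The central spindle and cytokinesis motors were split. KIF20A (MKLP2), which carries the chromosomal passenger complex from the chromosomes to the central spindle, had the largest change of the 10. Its levels were 49.7, 47.2, 53.2, 43.4 and 45.7 CPM in tumours 1, 6, 7, 10 and 15, and 74.5, 75.8, 101.6 and 63.0 CPM in tumours 9, 11, 12 and 13. The highest tumour with MSC lay well below the lowest without, and tumour 12 stood above the rest. The log2 change was -0.72 ± 0.12 (edgeR adjusted p = 0.00329). It was called in all 21 alternative analyses, 1 of which was the main fit read at another threshold. The log2 change was -0.81 to -0.58 when 1 tumour was left out (edgeR adjusted p up to 0.0150). Its exons overlap those of CDC23 on the opposite strand by 68 bases in GENCODE 29.

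KIF23 (MKLP1), the motor subunit of the centralspindlin complex, was 39.6, 38.4, 41.2, 35.0 and 43.6 CPM in tumours 1, 6, 7, 10 and 15. It was 48.9, 47.1, 58.5 and 47.9 CPM in tumours 9, 11, 12 and 13. The groups were apart, and tumour 12 stood above the other tumours without MSC. The log2 change was -0.35 ± 0.11 (edgeR adjusted p = 0.04998), at the edge of the threshold, and the call was kept in 2 of the 9 analyses without 1 tumour. Of 11 other alternatives at the same threshold, 3 kept the call, and it was lost with limma-voom, after thinning and after the GC correction. Its exons overlap an antisense gene by 231 bases in GENCODE 29.

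KIF14, which brings citron kinase to the midbody, was 9.04, 11.05, 9.35, 12.05 and 12.05 CPM in tumours 1, 6, 7, 10 and 15. It was 13.1, 11.9, 15.3 and 12.6 CPM in tumours 9, 11, 12 and 13. Tumours 10 and 15 overlapped tumour 11, so the groups met. The log2 change was -0.30 ± 0.15, with a 95% interval of -0.61 to 0.00 (edgeR adjusted p = 0.208).

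KIF20B (MPP1), a motor of late cytokinesis and the nearest relative of KIF20A among the 10, was 13.9, 12.6, 16.0, 14.97 and 17.0 CPM in tumours 1, 6, 7, 10 and 15. It was 18.9, 12.1, 13.3 and 16.4 CPM in tumours 9, 11, 12 and 13. The groups covered the same range, and tumour 12, the highest for 7 other members, was not high for KIF20B. The log2 change was -0.03 ± 0.15, with a 95% interval of -0.35 to 0.28 (edgeR adjusted p = 0.925). Its sign turned without tumours 6, 9 or 13, when the log2 change was 0.02, 0.10 and 0.01.

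**Figure D2:**
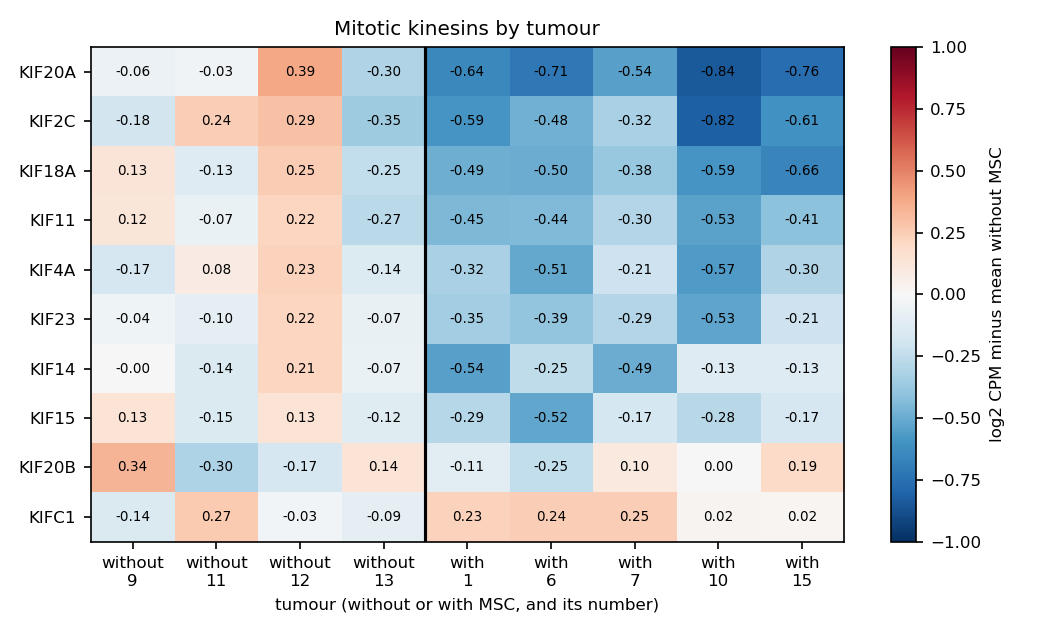
Log2 CPM of each mitotic kinesin (rows, ordered by change) in each tumour (columns, without MSC left of the line, with MSC right), minus the mean of the tumours without MSC; blue is lower and red higher. KIF20A is between -0.84 and -0.54 in all 5 tumours with MSC, while KIFC1 is between 0.02 and 0.25.

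The genes differed in how they followed one another from tumour to tumour. Tumour 12 had the highest level of 7 members, tumour 9 of 2 and tumour 11 of 1, and tumour 10 had the lowest level of 5. With each group centred on its own mean, KIF11 followed the mean of the other 9 members most closely over the 9 tumours (Pearson r = 0.92, a description), and then KIF20A (0.89), KIF23 (0.79), KIF18A (0.75) and KIF4A (0.72). KIF2C (0.61) and KIF15 (0.58) followed it less. KIF14 (0.02), KIFC1 (-0.06) and KIF20B (-0.26) did not follow it. Of 12604 other genes averaging 20 or more counts, those most like the mean profile of the 10 included CNOT2 (r = 0.96), YTHDC2 (0.96), SLC1A3 (0.95) and IPO8 (0.95), all over the same 9 libraries, which differ in depth. Their log2 changes were -0.27, -0.07, -1.05 and -0.36, and 0 of these 4 were called (edgeR adjusted p = 0.0766 to 0.794).

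Levels of different genes were compared as mean CPM per kb of the longest GENCODE 29 transcript, with n = 4 tumours without MSC. KIF2C was highest at 33.2 ± 7.16, followed by KIFC1 at 25.2 ± 3.36 and KIF20A at 24.6 ± 5.10, and the ranges of neighbours in this order overlapped. KIF11 (16.0 ± 2.31), KIF23 (13.6 ± 1.43) and KIF4A (11.5 ± 1.52) formed the next group, again with overlapping neighbours and below the range of KIF20A. KIF18A (6.20 ± 0.989) and KIF15 (5.21 ± 0.562) overlapped as well, and KIF20B (2.37 ± 0.483) and KIF14 (1.82 ± 0.201) were lowest and overlapped. With MSC (n = 5) KIFC1 came first at 27.9 ± 2.26 CPM per kb, its range overlapping that of KIF2C at 22.2 ± 2.79, and KIF20A was at 14.9 ± 1.18, below the range of KIF2C. The rest of the order was the same in both groups.

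The fall of the 6 members was set beside MKI67, the Ki-67 proliferation marker, and TOP2A, the DNA topoisomerase of dividing cells. MKI67 was 58.6 ± 7.94 CPM with and 64.5 ± 8.29 without MSC (log2 -0.14 ± 0.12, edgeR adjusted p = 0.500), and TOP2A had a log2 change of -0.28 ± 0.12 (edgeR adjusted p = 0.136). Within each library the log2 ratio of KIF20A to MKI67 counts was -0.29 ± 0.26 with MSC and 0.27 ± 0.26 without, and its groups did not overlap. Against TOP2A the log2 ratio of KIF20A was -1.63 ± 0.11 and -1.20 ± 0.45, and the groups overlapped, as they did for each of the 10 members against TOP2A. For KIF11 the ratio to MKI67 was -0.02 ± 0.21 and 0.26 ± 0.24, and for KIF2C 0.16 ± 0.30 and 0.59 ± 0.18, with overlap in both. Against PCNA, the sliding clamp of DNA replication, which fell (log2 -0.44 ± 0.12, edgeR adjusted p = 0.0284), the log2 ratio of KIF11 was -1.53 ± 0.14 with and -1.54 ± 0.09 without MSC. That of KIF20A was -1.79 ± 0.13 and -1.53 ± 0.12. Against PCNA the groups did not overlap for KIF20A, lower with MSC, and KIFC1, higher with MSC. They overlapped for all other members. These ratios are descriptions and were not tested.

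Other kinesins that act in mitosis were not called. CENPE, the motor that tows chromosomes to the equator, was 11.5 ± 2.02 CPM with and 16.0 ± 2.07 without MSC (log2 -0.48 ± 0.15, edgeR adjusted p = 0.0546), just outside the threshold. KIF2A, a relative of KIF2C at spindle poles, had a log2 change of -0.23 ± 0.11, the chromosome motor KIF22 of -0.16 ± 0.12 and KIF18B, which shortens astral microtubules, of 0.61 ± 0.26 (edgeR adjusted p = 0.219, 0.417 and 0.140). Of these 4 genes 1 was lower and 1 higher at an unadjusted p under 0.05 in edgeR, against 11.8% and 12.8% of all tested genes. DESeq2 called 1 lower and 0 higher, against 6.14% and 6.77% of its genes, and limma-voom 0 and 0. In edgeR 1 gene of this list was called lower without tumour 13 and without tumour 15. The same count held at 5 CPM in 4 libraries, after thinning and after the GC correction. KIF2B and KIF4B were too low to test.

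Of 21 tested kinesins that mainly carry cargo or act outside mitosis, 0 were called lower and 2 higher, against 3.60% and 4.18% of all tested genes. Their median log2 change was 0.05. The 2 were KIFC2, at 16.5 ± 2.94 CPM with and 11.2 ± 2.33 without MSC (log2 0.55 ± 0.17, edgeR adjusted p = 0.0469), and the ciliary motor KIF17, with 18 to 33 counts in each library with MSC and 0 to 10 without (edgeR adjusted p = 0.0404). At an unadjusted p under 0.05, 1 was lower and 5 higher in edgeR, against 11.8% and 12.8% of all tested genes. DESeq2 called 0 lower and 3 higher, against 6.14% and 6.77% of its genes, and limma-voom 0 and 0. KIF17 passed the filter on low counts only through the tumours with MSC, so its call supports nothing here. Both calls were lost without tumours 1, 9, 10, 11, 12 or 15, without 12 and 15 together, and after the GC correction, when 1 other gene was called lower. The count was 1 without tumours 6 or 7, with no filter and with library size alone as scaling. KIF5B, the main cargo kinesin of most cells, was 158.0 ± 4.39 with and 161.8 ± 16.3 CPM without MSC (log2 -0.03 ± 0.10, edgeR adjusted p = 0.867). KIFC3, a minus-end motor of the same subfamily as KIFC1, had a log2 change of 0.36 ± 0.11 and KIF1C of 0.32 ± 0.11 (edgeR adjusted p = 0.0555 and 0.0659). Among the kinesin light chains and adaptors 1 of 5 was called, KLC3, which was higher (log2 1.21 ± 0.29, edgeR adjusted p = 0.0189), and it was not called without tumours 6, 9 or 12.

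**Figure D3:**
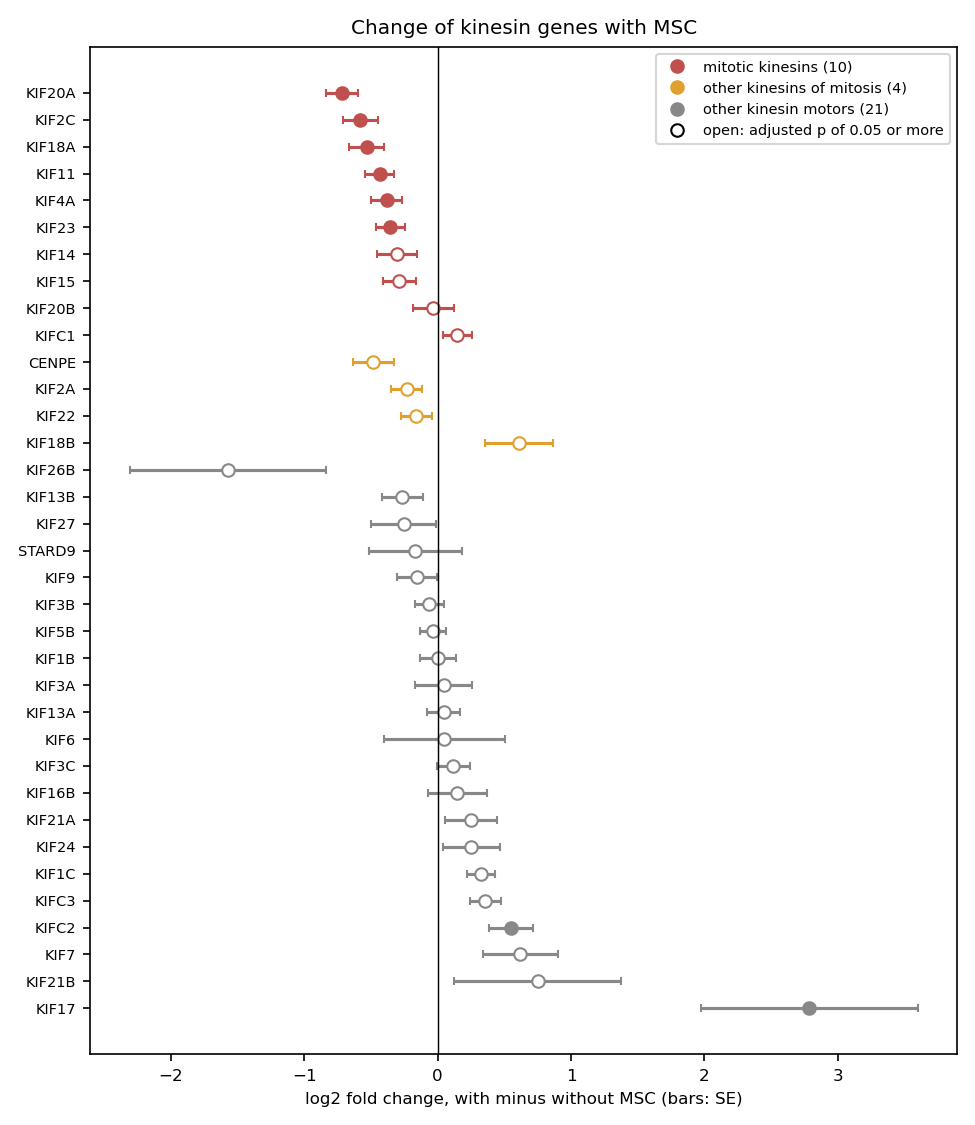
Log2 fold change (horizontal axis, with minus without MSC, bars SE) of the 10 mitotic kinesins, 4 other kinesins of mitosis and 21 other kinesin motors; filled points passed an edgeR adjusted p under 0.05. The 6 filled points left of 0 are mitotic kinesins, and the 2 filled points right of 0 are KIFC2 and KIF17, whose SE is wide because its counts are low.

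The partners of these motors were read list by list. In edgeR 3.60% of all tested genes were called lower and 4.18% higher, the shares to set beside each list. Of 21 spindle assembly genes 3 fell and 0 rose (median log2 -0.24): AURKA, the kinase that TPX2 activates on the spindle (log2 -0.51 ± 0.13, edgeR adjusted p = 0.0204), NUSAP1 (-0.54 ± 0.14) and the importin KPNA2 (-0.46 ± 0.13). ASPM, a spindle pole protein, had -0.42 ± 0.13 (edgeR adjusted p = 0.0579). Of 16 central spindle and cytokinesis genes 3 fell and 0 rose (median -0.23). These were RACGAP1, which joins KIF23 in centralspindlin (-0.41 ± 0.12, edgeR adjusted p = 0.0376), CDCA8 of the chromosomal passenger complex that KIF20A carries (-0.46 ± 0.11) and the actin scaffold ANLN (-0.37 ± 0.11). SEPT7 had -0.33 ± 0.11 (edgeR adjusted p = 0.0605).

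Without tumours 9, 10 or 12, or without 12 and 15 together, 0 spindle assembly genes were called lower, and without tumour 13 or with DESeq2 the count was 8. The central spindle count was 0 without tumour 12 or without 12 and 15 together, 1 without tumours 1, 7, 9, 10 or 15, with limma-voom or after the GC correction, 5 with DESeq2 and 6 without tumour 13. Of all tested genes 6.14% were called lower with DESeq2, 2.15% with limma-voom and 6.40% without tumour 13.

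Of 10 condensin and chromosome genes, which work with KIF4A, 1 fell, NCAPG (log2 -0.63 ± 0.12, edgeR adjusted p = 0.00617), from 64.7 ± 11.5 to 41.6 ± 4.43 CPM. Its fellow condensin subunits NCAPD2 and NCAPH had -0.34 ± 0.11 and -0.39 ± 0.13, and NCAPH2 of the second condensin 0.37 ± 0.13 (edgeR adjusted p = 0.0555, 0.0714 and 0.0775). Of 9 genes of mitotic entry 2 fell, CCNA2 (-0.56 ± 0.12, edgeR adjusted p = 0.00865) and CDK1 (-0.45 ± 0.11, edgeR adjusted p = 0.0208), the kinase that phosphorylates KIF11 so that it binds the spindle. CCNB2 and MASTL had -0.35 ± 0.12 and -0.36 ± 0.12. Of all tested genes 3.60% were called lower in edgeR, 6.14% with DESeq2 and 6.40% without tumour 13. The condensin count was 3 without tumour 13 or with DESeq2, and 2 after the GC correction. The mitotic entry count was 1 without tumours 9, 10 or 12, 0 without 12 and 15 together and 4 without tumour 13. Without tumour 13, 1 gene of each of these lists was called higher.

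Of 18 subunits of dynein and dynactin, the motor that opposes most kinesins, 3 were called lower, ACTR10 (-0.41 ± 0.10, edgeR adjusted p = 0.0198), DYNLT3 (-0.38 ± 0.11) and DYNLT1 (-0.34 ± 0.10), with a median of -0.09 over the list. That count was 0 without tumours 9 or 12, without 12 and 15 together and after the GC correction, and 1 without tumours 6, 7, 10 or 15 or with limma-voom. Of all tested genes 3.60% were called lower in edgeR, 6.14% with DESeq2 and 2.15% with limma-voom. DYNC1I1, a subunit at 1.13 ± 0.330 CPM with and 2.28 ± 0.388 without MSC, had an edgeR adjusted p of 0.0638. Of 13 tubulins, the track of all these motors, 0 were called in edgeR, with 5 lower and 1 higher at an unadjusted p under 0.05, against 11.8% and 12.8% of all tested genes, and DESeq2 and limma-voom called 1 and 0 lower. TUBA1B had a log2 change of -0.39 ± 0.14, TUBB3 of -0.35 ± 0.12, TUBA1A of -0.32 ± 0.12 and TUBA4A of 0.40 ± 0.13 (edgeR adjusted p = 0.0927, 0.0782, 0.104 and 0.0705). Without tumour 13, 4 tubulins were called lower, and without tumour 11, 1 was called higher.

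Of 24 regulators known from cell cycle gene control, whose binding was not measured here, 0 were called in edgeR. FOXM1, the factor that drives G2 and mitosis genes through the CHR element, was 140.0 ± 13.5 CPM with and 161.7 ± 18.7 without MSC (log2 -0.21 ± 0.11, edgeR adjusted p = 0.240). MYBL2, the B-Myb subunit of the MMB complex, was 75.7 ± 4.86 and 68.7 ± 1.77 CPM (log2 0.14 ± 0.10, edgeR adjusted p = 0.388). E2F4 and E2F7 had log2 changes of 0.32 ± 0.14 and 0.23 ± 0.11 (edgeR adjusted p = 0.147 and 0.212). Of the 24 genes 1 was lower and 1 higher at an unadjusted p under 0.05 in edgeR, against 11.8% and 12.8% of all tested genes, DESeq2 and limma-voom called 0, and 2 were called lower after the GC correction. Levels of RNA say nothing of the activity of these factors.

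**Figure D4:**
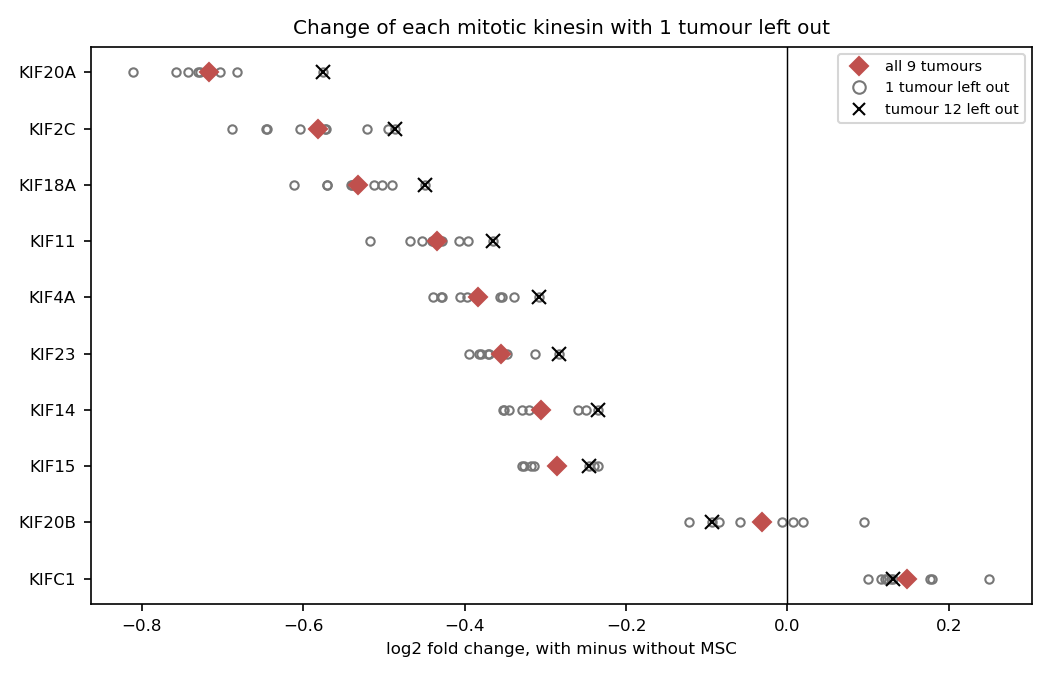
Log2 fold change of each mitotic kinesin (horizontal axis, with minus without MSC) from all 9 tumours (diamonds) and with 1 tumour left out (circles; the cross is without tumour 12). KIF20A ranges from -0.81 to -0.58, and 8 members stay left of 0, while KIF20B crosses it and KIFC1 stays to the right.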

How the data were processed

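The authors deposited raw counts by gene symbol, 1 table for each of 9 tumours. Tools listed in the submitters' processing notes are TopHat 1.4.0, CASAVA 1.8.1 and HTSeq, with hg19 as build. Which annotation and strand setting were used, and how mouse reads were handled, is not stated in those notes or the labels. Reads of mouse origin may be among the counts. Lines for reads assigned to no gene (10.2 to 12.1% of a library) were left out. No 2 libraries of a group agreed within sampling noise (smallest chi-square per degree of freedom 24.0).

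Counts were tested with edgeR 4.0.16 in R 4.3.3 (filterByExpr, TMM, glmQLFit with robust=TRUE), with Benjamini-Hochberg adjustment over all tested genes. SE was the log2 change divided by the square root of F, and 95% intervals used the t distribution of that fit. Alternatives used limma 3.58.1, DESeq2 1.42.0, other scalings and filters, thinning, left-out libraries, and a correction for GC content and length (natural splines, 4 degrees of freedom) (GENCODE 29, 95.8% of tested genes). Older symbols were matched through RefSeq synonyms, and TUBB4 had no match. Promoters were RefSeq's, GRCh38.p14, for all 10 members.

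The members and lists were chosen with earlier results of these data known. Named genes were all members, in each list at most 4 genes, those with the lowest p, MKI67, TOP2A, PCNA, FOXM1, MYBL2, RPL10A and the 5 genes most like the members' mean profile. KIF5B and the pair KIFC1 and KIF20A were chosen after their values were seen. Not every gene under the rule is reported here.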

Additional observations from a re-analysis of the deposited data

Results flagged for a closer look

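Single tumours stood apart from the rest of their group in 6 of 120 combinations of gene and group, where chance flags about 1 group in 20. KIF23 in tumour 12 without MSC was 58.5 CPM, against 47.1 to 48.9 in the other 3 tumours of that group. KIF18B was 3.72 CPM in tumour 13 without MSC, against 2.62 to 2.73 in the others. KIF2A was 40.6 CPM in tumour 7 with MSC, against 37.5 to 38.3 in the others. DYNC1I1 was 1.70 CPM in tumour 11 without MSC, against 2.41 to 2.52 in the others. RPL10A was 1576 CPM in tumour 15 with MSC, against 2324 to 2609 in the others. SLC1A3 was 2.38 CPM in tumour 7 with MSC, against 1.26 to 1.57 in the others.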

How the results depend on the processing

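The count of mitotic kinesins called lower, 6 with all tumours, was 1 without tumours 15 and 12 together and 1 to 6 when single tumours were left out, and 4 to 6 in the remaining alternatives; 0 were called higher in any. Over all genes, 563 higher and 484 lower calls became 857 and 777 with DESeq2, 956 and 888 at an adjusted p of 0.10, and 201 and 101 without tumours 15 and 12 together. Limma-voom gave 289 lower, and the GC and length correction 342 higher. Leaving out single tumours gave 151 to 985 higher and 94 to 863 lower. The change of KIFC1 was -0.00894 after the GC and length correction, and that of KIF20B was 0.02, 0.10 and 0.01 without tumours 6, 9 and 13, within -0.12 to 0.10 over single tumours left out; neither gene was called in any alternative, and the cause of these turns was not tested. No paired analysis was possible because the groups share no replicate number. The number of tumours and the spread between them limit the calls.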
